A study of Homo sapiens with 6 samples.

Results

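The genes that govern entry into the cell cycle from G1 were followed in Ishikawa cells, an endometrioid adenocarcinoma line that responds to estrogen, with and without the transcription factor gene ETV4. They were chosen by symbol as the 3 D-type cyclins (CCND1, CCND2 and CCND3), the 2 E-type cyclins (CCNE1 and CCNE2), the kinases CDK4 and CDK6, and the CIP/KIP inhibitors CDKN1A, CDKN1B and CDKN1C. These are 10 of the 26364 genes in the deposited count table, and all 10 were among the 15611 genes with enough counts to be tested. Of the 6 poly(A)-selected RNA-seq libraries, 2 came from the parental line, labelled wild type, and 4 from 2 clones labelled as ETV4 knockouts, called clone 1 and clone 2. Each line gave 1 library after 0.1% DMSO, the vehicle, and 1 after 10 nM estradiol (E2). All cells, parental and knockout, had been moved to hormone-depleted medium beforehand. The labels give conflicting treatment times, 8 h under the protocols and 1 h under the characteristics of each sample. Each knockout line is a single clone, so a difference of 1 clone from its parent cannot be told apart from variation between clones. With 1 parental line, genotype and line cannot be separated either. A difference shared by both clones may thus come from the knockout or from another difference between clones and parental line. The parental line had 1 library per treatment. Nothing in the labels says that libraries came from separate cultures, so the p-values measure the spread between these libraries alone.

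D-type cyclins bind CDK4 or CDK6, and E-type cyclins bind CDK2. Both kinds of kinase phosphorylate the retinoblastoma protein, which releases E2F factors to switch on the genes of DNA replication. The CIP/KIP inhibitors bind these cyclin-kinase complexes, with p21 (the CDKN1A protein) known as a target of p53. In the endometrium, estrogen drives epithelial proliferation, and cyclin D1 is among the genes that it is known to raise in estrogen-responsive cells.

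Library totals ran from 28037392 to 36829479 counts. Levels below are in CPM, counts relative to the TMM-scaled library, and the TMM factors ran from 0.899 for the parental DMSO library to 1.04. ETV4 was at 2.42 to 3.41 CPM in the 4 clone libraries and at 19.7 (DMSO) and 28.4 CPM (E2) in the parental line, a log2 difference of -3.04 (SE 0.21, adjusted p = 0.00868 by edgeR's quasi-likelihood test). The 6 epithelial markers summed to 2289 to 3201 CPM, with overlap between clones and parental line. The 7 stromal markers summed to 46.6 to 74.3 CPM in the clones and 61.3 to 88.3 CPM in the parental line, mostly from COL1A1. Within that list VIM had at most 0.034 CPM in the clones against 3.63 (DMSO) and 2.54 CPM (E2) in the parental line, and COL3A1 1.34 to 3.35 CPM against 7.93 and 9.73 CPM. The 5 immune markers summed to 3.24 to 5.12 CPM in the clones and 3.23 to 5.61 CPM in the parental line, with CD3E at 0 in every library. The 4 endothelial markers summed to 2.70 to 4.55 CPM in the clones and 1.65 to 2.46 CPM in the parental line, without overlap, with PECAM1 and CDH5 at 0.069 CPM or less. The part of these marker differences in the clone differences below was not tested. The estrogen receptor gene ESR1 was at 149 to 276 CPM. In bulk RNA, fewer cells that express a gene and less of its RNA per cell cannot be told apart.

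Over the 3 lines, 1 of the 10 genes passed the test for E2 against DMSO (adjusted p below 0.05), the cyclin gene CCND2, which rose. The background was 176 of 15611 genes, or 1.13%. Over both treatments, 1 of 10 passed for the clones against the parental line, the inhibitor gene CDKN1A, which was higher in the clones, where 51 genes, or 0.327%, passed. Between the 2 clones 1 of 10 passed, the kinase gene CDK6, which was lower in clone 2, against 136 genes or 0.871%. In the 4 clone libraries alone, 0 of 10 passed for E2 by edgeR, with 2 at an unadjusted p below 0.05 and 2 by DESeq2. Of 14881 genes tested there, 0.329% passed by edgeR, 1295 (8.7%) had an unadjusted p below 0.05 and DESeq2 called 310. For the interaction, which tests whether the E2 change differs between clones and parental line, 0 of 10 passed by edgeR and 0 by DESeq2, with 1 at an unadjusted p below 0.05. No gene of the table passed the interaction test by edgeR (0% of 15611), with 1190 at an unadjusted p below 0.05 and 29 by DESeq2.

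**Figure D1:**
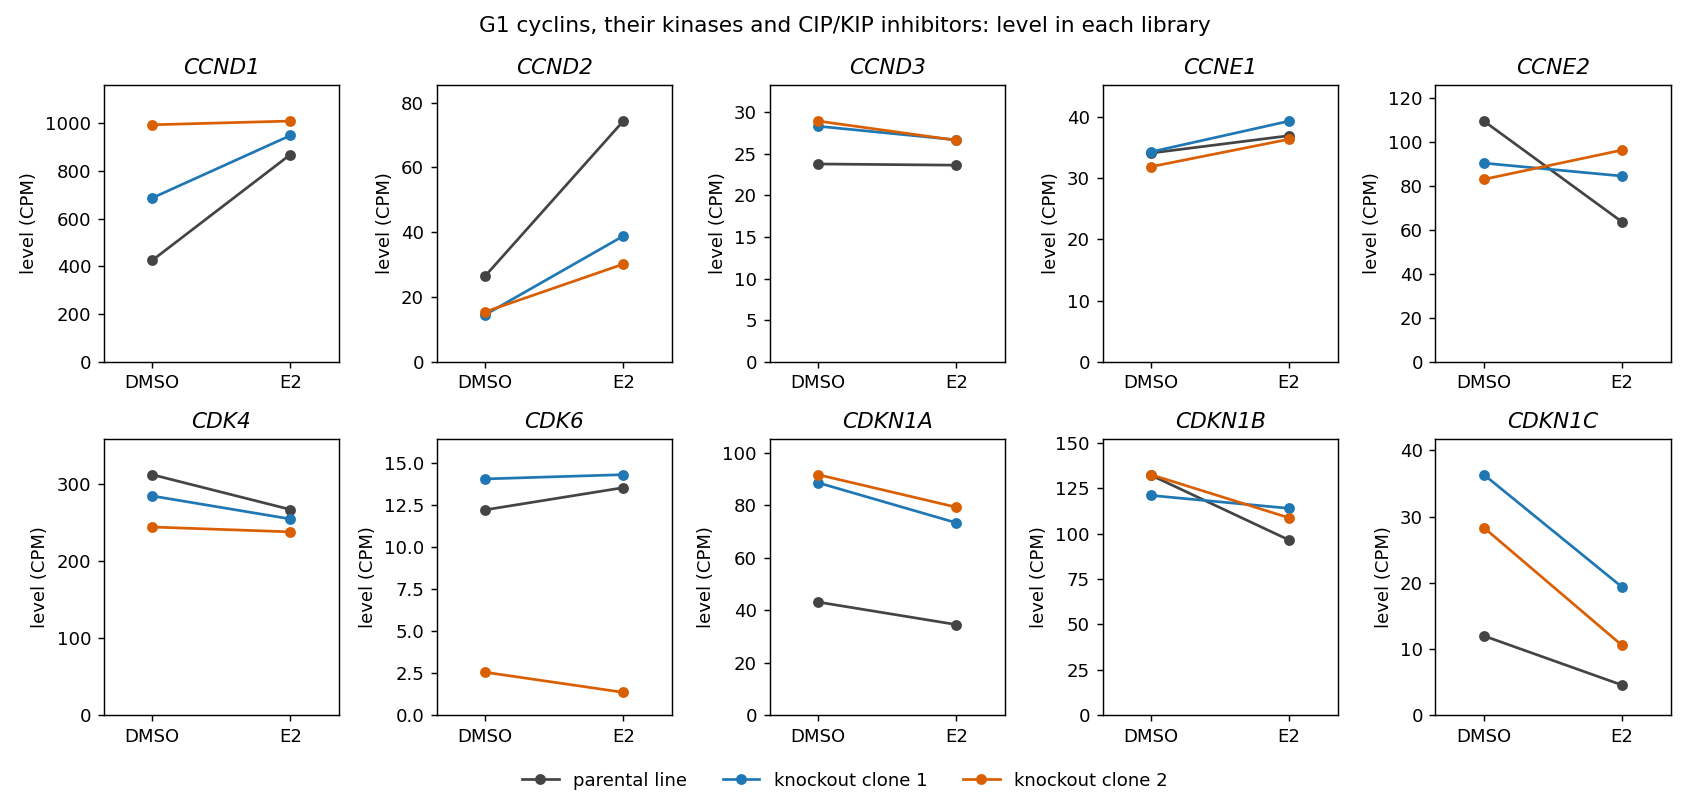
Level of each gene in CPM (vertical axis, from 0, one scale per panel) in the DMSO and the E2 library of the parental line and of each knockout clone. Each point is 1 library and each line joins the 2 libraries of a cell line: CCND2 runs upward in all 3 lines, CDKN1C downward, and CDKN1A of both clones lies above the parental line.

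CCND2 encodes cyclin D2. In DMSO its level was 26.4 CPM for the parental cells, 14.5 CPM for clone 1 and 15.4 CPM for clone 2. In E2 it was 74.3, 38.8 and 30.1 CPM in the same order. All 3 E2 libraries lay above all 3 DMSO libraries. The fitted E2 change was 1.30 on the log2 scale (SE 0.15, 95% interval 0.95 to 1.65), or 2.47-fold, with an adjusted p of 0.0149 by edgeR. Within each line the log2 ratio was 1.49 for the parental cells, 1.42 for clone 1 and 0.97 for clone 2. In the clones alone the fitted change was 1.20 (SE 0.18, adjusted p = 0.0927 by edgeR), and with clone as a block it passed at 1.19 (adjusted p = 1.40e-17), in a fit where 15% of all genes passed. Without clone 2 in E2 it was 1.37 (adjusted p = 0.000869 by edgeR). The interaction estimate was -0.29 (95% interval -1.01 to 0.44, adjusted p = 0.765 by edgeR), so a difference in E2 response between clones and parental line was not shown and a sizeable one lies within the interval. The E2 call over the 3 lines was lost without clone 1 in DMSO (adjusted p = 0.0742 by edgeR), without parental DMSO (0.0797), without parental E2 (0.0865) and without the whole parental line (0.0927), with estimates of 1.19 to 1.46 in all 9 fits that left out a library or a line.

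The parental line had the highest CCND2 level within each treatment. Relative to the parental library of the same treatment, the log2 ratio was -0.86 in clone 1 and -0.78 in clone 2 in DMSO, and -0.94 and -1.30 in E2. The fitted knockout difference was -0.97 (SE 0.15), which did not pass by edgeR (adjusted p = 0.0745) and passed by DESeq2 (-0.98, adjusted p = 3.52e-05). With line as a random block in limma it did not pass (-0.99, adjusted p = 0.114). Of the 6 fits by edgeR that left out 1 library it passed in 1, without clone 2 in DMSO (-1.01, adjusted p = 0.0406), and the others gave adjusted p-values up to 0.372. Without all of clone 1 (-1.06, adjusted p = 0.00974) or of clone 2 (-0.90, adjusted p = 6.35e-05) it passed, in fits with 1 residual degree of freedom.

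CCND1 encodes cyclin D1. Its mean level per kilobase of exon, 187 CPM per kb, was the highest of the 10 genes, followed by CDK4 at 128 CPM per kb, which was ahead of it in the parental DMSO library (150 against 96.5). Its parental level was 425 CPM with DMSO and 869 CPM with E2. Clone 1 went from 687 to 949 CPM and clone 2 from 994 to 1010 CPM. In DMSO clone 1 lay between the 2 parental libraries and clone 2 above both, at 1.62-fold and 2.34-fold of the parental DMSO library. In E2 the clones were at 1.09-fold and 1.16-fold of the parental line. The E2 log2 ratio was 1.03 in the parental line (95% counting interval 1.00 to 1.06). For clone 1 it was 0.47 (0.44 to 0.49), and for clone 2 it was 0.023 (-0.00075 to 0.046). These counting intervals are exact binomial ones and cover counting error only, not the spread between cultures.

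No CCND1 difference passed in the edgeR fits of all libraries without a block. Over the 3 lines the E2 change was 0.49 (SE 0.23, adjusted p = 0.273 by edgeR). Without clone 2 in DMSO it was 0.73, and without both clone 2 libraries 0.75, the latter in a fit with 1 residual degree of freedom. In the clones alone it was 0.21 (SE 0.22, adjusted p = 0.842 by edgeR). The knockout difference was 0.56 (SE 0.25, adjusted p = 0.448 by edgeR). For the interaction the estimate was -0.81 (SE 0.37, adjusted p = 0.617 by edgeR), and with line as a block it passed at -0.79 (SE 0.27, adjusted p = 0.0269 by edgeR), in a fit where 15.8% of all genes passed. Exons of CCND1 share 497 of 4405 bp with LTO1 (ORAOV1 in the table) on the opposite strand. ORAOV1 itself had at most 834 counts, against at least 12647 for CCND1.

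CCND3 encodes cyclin D3. In DMSO it was at 23.8 CPM for the parental cells, 28.3 CPM for clone 1 and 28.9 CPM for clone 2, and in E2 at 23.6, 26.7 and 26.6 CPM. All 4 clone libraries lay above both parental libraries. Of the 10 genes 2, CCND3 and CDKN1A, had no overlap between clone and parental libraries, as had 16.4% of all genes tested. The knockout difference of 0.22 (SE 0.12, adjusted p = 0.4998 by edgeR) did not pass, nor did the E2 change of -0.07 (adjusted p = 0.725).

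Levels of different genes were compared per kilobase of exon. On that scale CCND1 made up 90.5% to 95.9% of the summed D-type cyclin signal in every library. CCND2 made up 1.01% (clone 2 in DMSO) to 5.34% (parental line in E2) and CCND3 2.79% to 5.65%. The D-type sum itself ran from 107 CPM per kb in the parental DMSO library to 241 CPM per kb in clone 2 with E2, so the 2.47-fold E2 rise of CCND2 took place in a small share of the family.

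CDK4 and CDK6 are the kinase partners of the D-type cyclins. CDK4 was at 312 CPM for the parental cells, 284 CPM for clone 1 and 244 CPM for clone 2 in DMSO, and at 266, 254 and 237 CPM in E2. The E2 library was the lower of the pair in each line, with a fitted change of -0.14 (SE 0.13, adjusted p = 0.532 by edgeR). Each clone library was below the parental library of its treatment, with a fitted difference of -0.18 (SE 0.14, adjusted p = 0.579). Neither difference passed. With scaling to total counts, clone 1 in DMSO came to 0.033 above the parental line. Of the 2076 bp of CDK4 exons, 1078 bp overlap TSPAN31 on the other strand, which was at 15.5 CPM in the parental DMSO library and 6.92 CPM with E2. Whether the counting used strand is not given in the sources used here, so the counts of such pairs are uncertain.

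CDK6 was the member that set the clones apart. In the parental line its DMSO and E2 libraries had 12.2 and 13.5 CPM, from 363 and 506 counts. Clone 1 was at 14.0 and 14.3 CPM (503 and 417 counts). Clone 2 was at 2.56 and 1.37 CPM (75 and 40 counts), below all 4 other libraries. The fitted difference of clone 2 from clone 1 was -2.86 (SE 0.29, 95% interval -3.56 to -2.16), or 7.28-fold lower, with an adjusted p of 0.0131 by edgeR. It passed in each of the 6 fits that left out 1 library, at -3.41 to -2.42. Against the parental library of the same treatment, clone 2 was at -2.22 in DMSO and -3.25 in E2 (95% counting interval -3.81 to -2.84), and clone 1 at 0.20 and 0.08.

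The knockout difference of CDK6 had a wide interval, -0.67 (SE 0.87, 95% interval -2.74 to 1.401, adjusted p = 0.732 by edgeR). Without clone 2 it was 0.14, and without clone 1 it was -2.77 (adjusted p = 7.02e-13). The E2 change over the 3 lines was -0.0098 (SE 0.84, adjusted p = 0.995 by edgeR) in the fit without a term for line. With line as a block it was -0.15 (SE 0.22, 95% interval -0.68 to 0.38, adjusted p = 0.672 by edgeR). The blocked interaction estimate was -0.41 (95% interval -0.96 to 0.14, adjusted p = 0.339 by edgeR), and neither passed. Within clone 2 the E2 log2 ratio was -0.88, with a counting interval of -1.50 to -0.33. Without clone 1 in E2 the CDK6 estimate was -2.62 in the clones alone and -2.75 in the interaction. These fits had no term for line and set clone 2 in E2 against the DMSO libraries of both clones. The level difference between the clones therefore entered these estimates, which do not measure an E2 change alone. Per kilobase of exon, CDK4 made up 99.0% to 99.9% of the summed signal of the 2 kinases in the 6 libraries, and CDK6 0.102% to 0.986%.

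The E-type cyclins carry the cycle into S phase with CDK2, and neither passed a test in the fits of all libraries without a block. CCNE1 was at 34.1 CPM for the parental cells, 34.3 CPM for clone 1 and 31.9 CPM for clone 2 in DMSO. In E2 it was at 36.9, 39.3 and 36.4 CPM. All 3 E2 libraries lay above all 3 DMSO libraries, as also for CCND2, while CDKN1B showed the reverse order. That made 3 of 10 genes without overlap between treatments, where 24.2% of all genes tested had none. The CCNE1 change was 0.17 (SE 0.11, adjusted p = 0.407 by edgeR), and its knockout difference of -0.0043 (95% interval -0.28 to 0.28, adjusted p = 0.990) did not pass either.

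CCNE2 had its highest and its lowest level in the parental line, 109 CPM in DMSO and 63.5 CPM in E2. Clone 1 was at 90.2 and 84.4 CPM and clone 2 at 82.9 and 96.2 CPM. The E2 log2 ratio was therefore -0.78 for the parental cells, -0.10 for clone 1 and 0.21 for clone 2. After removal of the trend of each line's E2 ratio with transcript GC content, a correction chosen after the data were seen, the parental ratio was -0.46. Over the 3 lines the E2 change of -0.22 (SE 0.19, adjusted p = 0.524 by edgeR) did not pass, and without parental DMSO, parental E2 or the whole parental line it was 0.043, 0.062 and 0.052. The interaction estimate of 0.84 (SE 0.25, 95% interval 0.25 to 1.44) had an adjusted p of 0.617 by edgeR, and with line as a block it passed (0.84, SE 0.23, adjusted p = 0.00534). In that blocked fit 15.8% of all genes passed, and its spread came from the clones alone. INTS8, on the opposite strand, shares 1629 of the 3432 bp of CCNE2 exons and went from 60.7 to 69.5 CPM in the parental line.

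**Figure D2:**
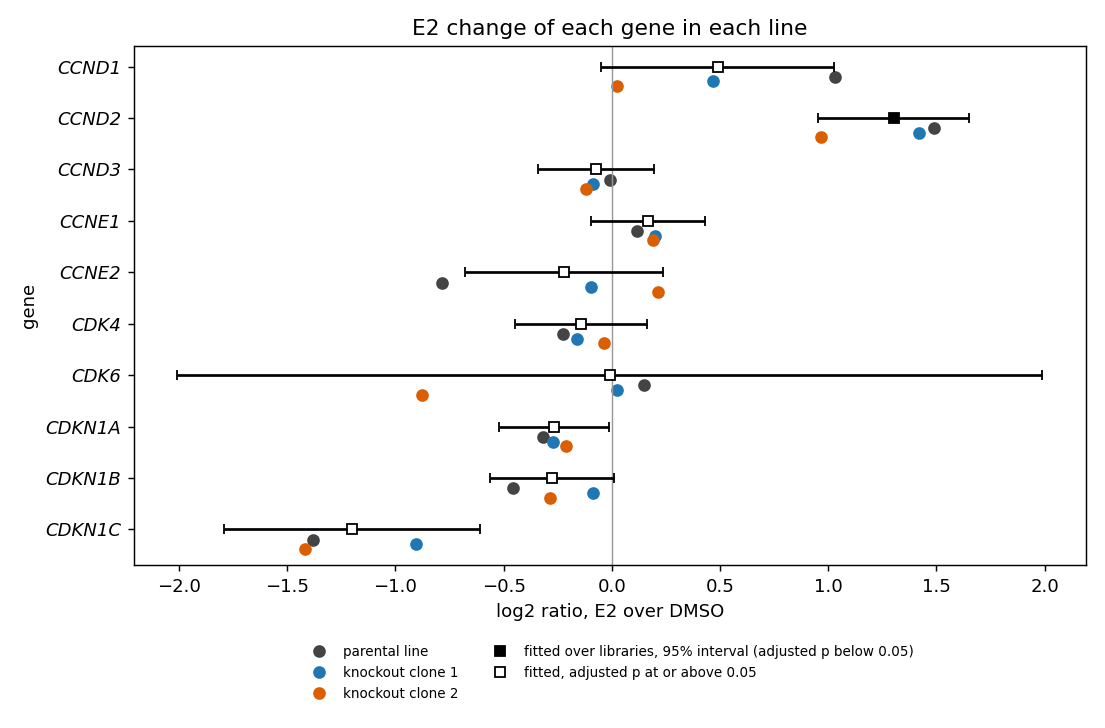
Log2 ratio of the E2 over the DMSO library for each gene (rows), with coloured points for the 3 lines and squares for the change fitted over 6 libraries with its 95% interval. The CCND2 square is filled because its adjusted p was below 0.05, and the points of CCND1 run from 1.03 in the parental line to 0.023 in clone 2.

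CDKN1A encodes p21. In DMSO it was at 43.2 CPM for the parental cells, 88.6 CPM for clone 1 and 91.7 CPM for clone 2. In E2 it was at 34.6, 73.4 and 79.3 CPM. The clones averaged 90.2 ± 2.17 CPM in DMSO and 76.3 ± 4.20 CPM in E2 (SD, n = 2 each), and all 4 clone libraries lay above both parental ones. The fitted knockout difference was 1.10 (SE 0.12, 95% interval 0.82 to 1.39), or 2.15-fold higher in the clones, with an adjusted p of 0.0271 by edgeR, or 0.0340 with line as a random block in limma. Each clone in each treatment showed it, with log2 ratios of 1.04, 1.09, 1.08 and 1.20. The call was lost without clone 1 in DMSO (adjusted p = 0.104 by edgeR), clone 1 in E2 (0.0522), clone 2 in E2 (0.132), parental DMSO (0.275) or parental E2 (0.169), with estimates of 1.06 to 1.13 in all 8 fits that left out a library or a clone. It held when both libraries of either clone were left out, which leaves 1 residual degree of freedom.

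The E2 ratio of CDKN1A was -0.32 for the parental cells, -0.27 for clone 1 and -0.21 for clone 2. The fitted change of -0.27 (SE 0.11, adjusted p = 0.230 by edgeR) did not pass. With scaling to total counts the parental ratio was -0.14, and with the GC trend removed it was -0.55. The interaction was 0.08 (95% interval -0.47 to 0.63, adjusted p = 0.926).

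ETV4 is an ETS factor, a family that binds a GGAA core. The promoter of CDKN1A, the inhibitor gene called higher in the clones, is therefore shown. RefSeq promoter windows (GRCh38.p14) were at hand for 6 of the 10 genes, in 9 windows. Of each, the 250 bases before the start site were searched. CDKN1C, which had the larger fitted knockout difference, had no window. The sequence printed is the first 194 bases of the CDKN1A window, which end where an exon of the gene begins (GENCODE 29), chr6:36678464-36678657 on the plus strand, with the core (GGAA, or TTCC on the other strand) in capitals.
CDKN1A: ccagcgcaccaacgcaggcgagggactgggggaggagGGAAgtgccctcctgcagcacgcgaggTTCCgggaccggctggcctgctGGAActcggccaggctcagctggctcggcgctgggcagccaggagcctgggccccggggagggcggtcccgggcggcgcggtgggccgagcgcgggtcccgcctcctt
Its 250-base window held 3 such cores. Of 35116 windows of that length, 92.7% held at least 1. The longer form CCGGAA, which contains the core, occurred 1 time, and 14.5% of windows held at least 1. The SP1 box GGGCGG occurred 4 times, and 42.6% of windows held at least 1. How many windows held as many as 3 cores or 4 boxes was not counted. Neither the palindromic estrogen response element (0.0399% of windows) nor its half-site GGTCA (32.6%) occurred, counting both strands. In the CDK6 window nearest the 5′ end of the gene there were 1 core, 0 copies of CCGGAA and 3 SP1 boxes. The core occurred in all 9 windows, so CDKN1A does not stand out by it. A CCND3 window held 4 cores, and another CCND3 window held 3 cores and 1 CCGGAA. These are matches of letters, and no binding was measured in these libraries.

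CDKN1C encodes p57. Its level in DMSO was 12.0 CPM for the parental cells, 36.3 CPM for clone 1 and 28.3 CPM for clone 2. With E2 it was 4.57, 19.4 and 10.6 CPM. The E2 library was the lower one in each line and the clones were above the parental line in each treatment, with clone 2 in E2 below parental DMSO. The E2 log2 ratio was -1.38 for the parental cells, -0.91 for clone 1 and -1.42 for clone 2. With the GC trend removed, a correction chosen after the data were seen, these ratios were -1.78, -1.02 and -1.44. The fitted E2 change was -1.20 (SE 0.25, 95% interval -1.79 to -0.61, adjusted p = 0.0907 by edgeR) and did not pass. With line as a block it passed at -1.23 (SE 0.15, adjusted p = 0.0190), in a fit where 2.46% of genes passed and where 2 of the 10 genes, CCND2 and CDKN1C, did. DESeq2 also called it (-1.21, adjusted p = 0.000339). Leaving out libraries or lines gave -1.52 to -1.003, and whether edgeR called it varied with what was left out. It was -1.43 without both libraries of clone 1 and -1.13 without both of clone 2, each in a fit with 1 residual degree of freedom. In the clones alone it was -1.12 (SE 0.31, adjusted p = 0.353 by edgeR). With clone as a block it passed (-1.16, adjusted p = 1.58e-16 by edgeR), in a fit where 15% of all genes passed. Without clone 1 in E2 the estimate in the clones was -1.63.

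CDKN1C had the largest fitted knockout difference of the 10 genes. Relative to the parental library of its treatment, clone 1 was at 1.59 in DMSO and 2.07 in E2 on the log2 scale, and clone 2 at 1.24 and 1.20. The fit gave 1.56 (SE 0.28, 95% interval 0.89 to 2.23, adjusted p = 0.111 by edgeR), which did not pass, whereas DESeq2 called it (adjusted p = 7.99e-06). With line as a random block in limma it did not pass (1.51, adjusted p = 0.140). In none of the 6 fits that left out 1 library did it pass by edgeR (1.34 to 1.70, adjusted p = 0.0524 to 0.681). Without both libraries of clone 1 (1.21, adjusted p = 0.00263) or of clone 2 (1.83, adjusted p = 1.14e-16) it passed, in fits of 1 clone against the parental line with 1 residual degree of freedom. Clone 2 lay 0.61 below clone 1 (SE 0.18, adjusted p = 0.259 by edgeR). With parental DMSO or parental E2 left out, that difference was -0.60 each time. Such a fit has 1 residual degree of freedom, with its spread from the clones alone.

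CDKN1B encodes p27. In DMSO its level was 132 CPM for the parental cells, 121 CPM for clone 1 and 132 CPM for clone 2, and with E2 it was 96.4, 114 and 109 CPM. All 3 E2 libraries lay below all 3 DMSO libraries. Its log2 ratio was -0.45 for the parental cells, -0.09 for clone 1 and -0.29 for clone 2, and the fitted change of -0.28 (SE 0.12, adjusted p = 0.256 by edgeR) did not pass. The knockout difference of 0.07 (SE 0.13, 95% interval -0.23 to 0.38, adjusted p = 0.813) did not pass.

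The make-up of the inhibitor family differed between lines. Per kilobase, CDKN1B made up 68.0% and 69.2% of the CIP/KIP sum in the parental line (DMSO and E2), and 45.7% to 52.5% in the clones. CDKN1A made up 23.5% and 26.3% in the parental line and 35.5% to 40.5% in the clones. CDKN1C made up 8.45% and 4.49% in the parental line, 18.8% and 12.1% in clone 1, and 14.4% and 6.97% in clone 2. The sum was 73.1 and 52.4 CPM per kb in the parental line, 99.6 and 82.1 in clone 1, and 101 and 77.9 in clone 2, so it was lower with E2 in each line. No test was made on these shares.

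**Figure D3:**
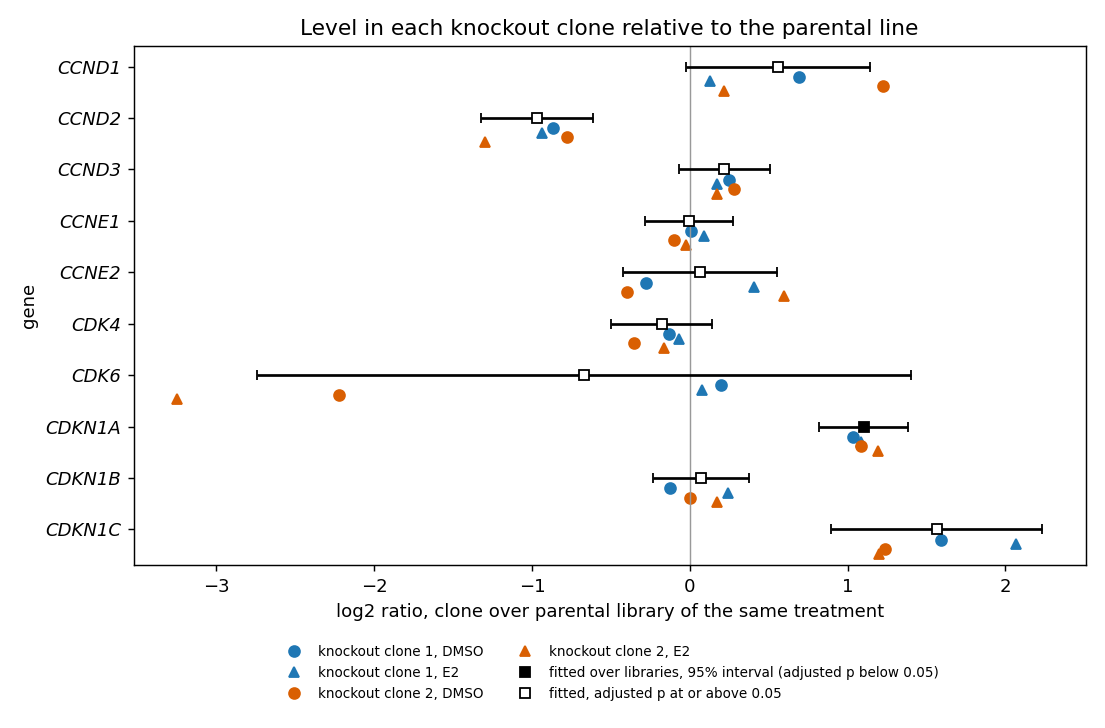
Log2 ratio of each clone library over the parental library of the same treatment (circles for DMSO, triangles for E2) for each gene, with squares for the fitted knockout difference and its 95% interval. CDKN1A is the filled square at 1.10 with its 4 points between 1.04 and 1.20, and CDK6 splits into clone 1 near 0 and clone 2 at -2.22 and -3.25.

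Across all 10 genes, 8 had the same sign of the E2 ratio in the 3 lines, the exceptions being CCNE2 and CDK6, where 53% of all genes tested had one sign. For the clones against the parental line, 6 of 10 had the same sign in all 4 like-for-like ratios, against 34.1% of all genes. As a measure of the spread, the interquartile range of the E2 ratio over all genes tested was -0.46 to 0.49 in the parental line, -0.21 to 0.25 for clone 1 and -0.19 to 0.23 for clone 2. CCND2 and CDKN1C were outside that range in every line. By construction about as many genes lie outside the range in a line as within it. The share of all genes outside it in all 3 lines was not counted.

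The fitted values not given above did not pass either. The interaction estimates were -0.09 for CCND3, 0.08 for CCNE1, 0.12 for CDK4, -0.24 for CDK6, 0.27 for CDKN1B and 0.28 for CDKN1C, with adjusted p-values of 0.723 to 0.978 by edgeR. The intervals of CDK6 (-4.73 to 4.25) and CDKN1C (-1.03 to 1.59) were the widest of the 10. In the clones alone the E2 change was -0.11 for CCND3, 0.19 for CCNE1, 0.052 for CCNE2, -0.11 for CDK4, -0.092 for CDK6, -0.25 for CDKN1A and -0.20 for CDKN1B (adjusted p = 0.648 to 0.989). Clone 2 differed from clone 1 by -0.16 for CDK4 to 0.33 for CCND1 (95% interval -0.30 to 0.96), with CCND2, CCND3, CCNE1, CCNE2, CDKN1A and CDKN1B between them (adjusted p = 0.618 to 0.971 for these 8).

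The other genes of the pathway were read as 7 lists with 87 genes in all, of which 86 were tested. By edgeR 0 of 86 passed for E2, with 17 (19.8%) at an unadjusted p below 0.05 where all genes gave 20.4%. For the knockout 0 of 86 passed, with 11 (12.8%) against 11.4%. DESeq2 called 3 of these genes for E2 and 1 for the knockout, where it called 1115 and 454 of all 15611 genes. The interaction, the clones alone and the 2 clones against each other also gave 0 of 86 by edgeR, and 1, 1 and 0 by DESeq2, which called 29, 310 and 369 of all genes there. At an unadjusted p below 0.05 there were 7 (8.14%, against 7.62% of all genes), 4 (4.65% against 8.7%) and 6 (6.98% against 12.1%).

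Among the INK4 inhibitors, which block CDK4 and CDK6 directly, 0 of 4 passed for E2, and their fitted changes were -0.38 to -0.25 with a median of -0.37, beside a median of -0.017 for all genes. For the knockout their median was 0.07. The RB-E2F list (13 genes) had a median E2 change of 0.09 and the list of E2F targets, which includes the MCM helicase genes, one of -0.03. Their knockout medians were -0.03 and -0.05, beside 0.013 for all genes. For the 21 genes of p53 and its targets, the list that CDKN1A belongs to by function, the knockout median was 0.02, with 11 genes above 0 and 10 below. The lowest was FAS, a death receptor gene, at -0.79 (adjusted p = 0.388 by edgeR), and the highest was GDF15, a stress-response cytokine gene, at 0.61 (adjusted p = 0.421).

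In the forkhead and TGF-beta list, which holds known inputs to CDKN1B and CDKN1C, 9 of 10 genes were above 0 for the knockout. Their median was 0.18, beside 0.013 for all genes, and 0 of 10 passed by edgeR. With line as a random block in limma 8 of 10 were above 0. The share of all genes above 0 was not counted. FOXO3 was the highest at 0.89 (adjusted p = 0.155 by edgeR) and was called by DESeq2 (adjusted p = 0.00237). DESeq2 called 3 p53-list genes for E2, TP53INP1 (-0.88, adjusted p = 0.000358), BTG2 (-0.45, adjusted p = 0.0242) and AEN (0.54, adjusted p = 0.02004). These 4 genes, FAS and GDF15 were picked out after their values were seen. For genes that degrade G1 regulators, such as SKP1 and SKP2 of the SCF ubiquitin ligase, the medians were -0.14 for E2 and -0.09 for the knockout. Other kinases, cyclins and phosphatases of the G1/S step gave medians of -0.19 and -0.22.

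**Figure D4:**
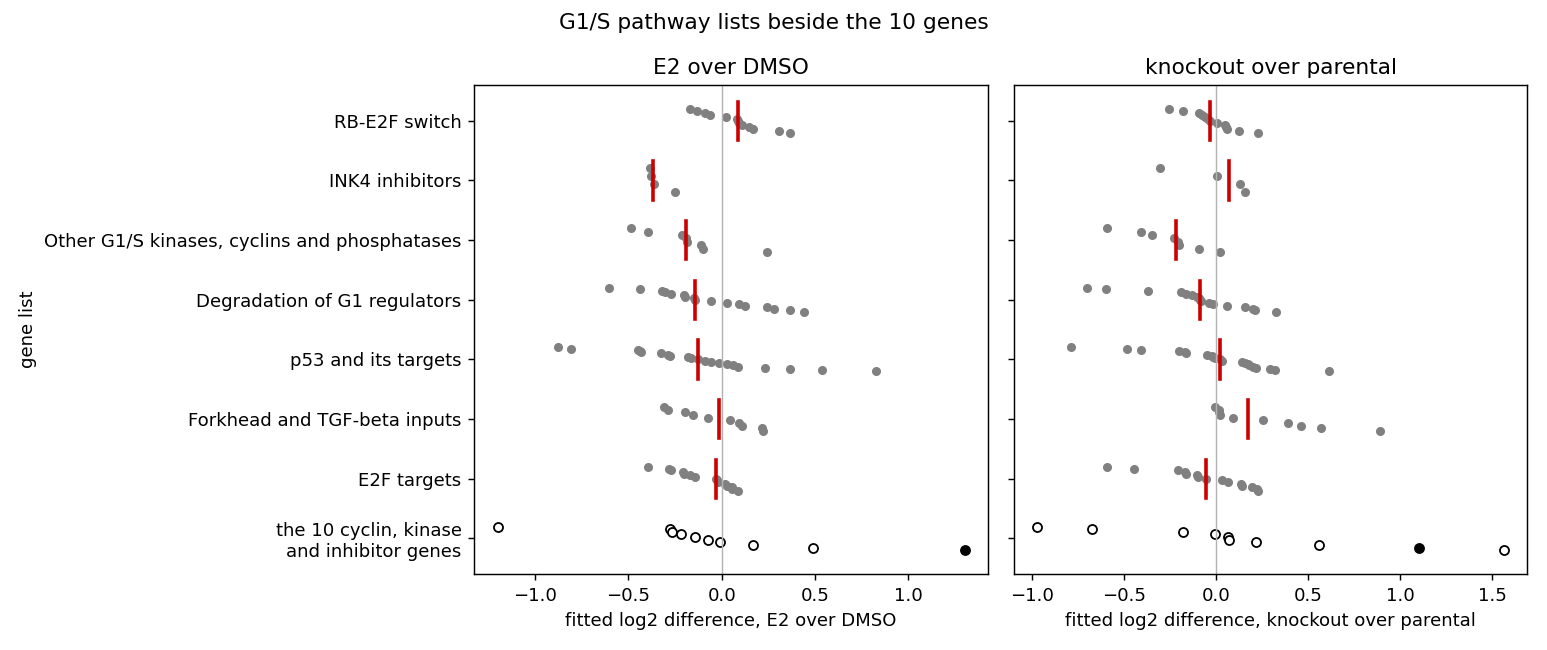
Fitted log2 difference of each gene (grey points) in 7 G1/S lists, with a red bar at each list's median, for E2 over DMSO (left) and knockout over parental (right). The bottom row holds the 10 genes described here, with a filled circle where the adjusted p was below 0.05 (CCND2 at 1.30 on the left, CDKN1A at 1.10 on the right).

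The genes whose levels ran most like the called members were found by Pearson's r of log2 CPM over the 6 libraries, among the 9912 genes that averaged 10 CPM or more. The 6 points share 3 lines and 2 treatments, and the values are a description. For CCND2 they were GTPBP4 (r = 0.994), TOMM40 (r = 0.988) and YBX3 (r = 0.986). For CDKN1A they were TUBA8 (r = 0.999), PCDHGB4 (r = 0.996) and ZNF347 (r = 0.993). TUBA8, an alpha-tubulin gene, was at 19.2 CPM or more in each clone library and at 10.1 and 8.15 CPM in the parental line.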

How the data were processed

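Per the labels' protocols, total RNA went into a stranded poly(A) library kit. The authors deposited a table of raw counts, whole numbers per gene symbol and library. The submitters' processing notes name HISAT2, SAMtools, Subread, DESeq2 and the build hg19. The annotation and the use of strand in counting are not given in the sources used here. Table columns written DMOS and ER were read as DMSO and E2, and 0 columns were unmapped. A second deposited table of normalized values was not used here.

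The tests were run with edgeR 4.0.16 under R 4.3.3. The filter was filterByExpr over 4 groups (15611 genes left, 14881 for the clones alone). After TMM scaling, each gene went through the quasi-likelihood test, with adjustment by Benjamini-Hochberg over all genes tested, at 0.05. The E2 and knockout effects came from 1 additive model of 6 libraries, the interaction from a model with their product, and the clone contrast from a model of treatment and line. SE was taken as the log2 coefficient divided by the root of F. Log2 ratios of single libraries used a prior count of 2. With 1 parental library per treatment these ratios have no p-value. The knockout test treats both libraries of a line as independent. Exon lengths came from GENCODE 29 (GRCh38) and serve as lengths only.

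The rule named the 10 genes in every comparison whatever their value, pathway genes with an adjusted p below 0.05, of which there were 0, and for likeness the 3 genes nearest to the member with the smallest p for E2 and for the knockout. Pathway genes named as the lowest or highest of a list, or as DESeq2 calls, fall outside the rule. The members and lists were chosen with earlier results of these data known.

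Pairing comes from the labels, since both treatments of a line carry its clone number. The difference between the clones correlated between treatments (r = 0.626 across genes). As replicate block, line entered as a fixed factor, or for the knockout as a random effect in limma 3.58.1. For the interaction and the clones alone, the blocked fit left 1 residual degree of freedom. There edgeR took 1 spread for all genes, on which those p-values depend. In the interaction that spread came from the clones, since the model fits both parental libraries exactly. Alternatives were DESeq2 1.42.0, other scalings, filters and prior counts, the block, libraries or lines left out and, chosen after seeing the data, a GC correction.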

Additional observations from a re-analysis of the deposited data

Results flagged for a closer look

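With line entered as a block, 2 genes passed edgeR's quasi-likelihood test for an E2 change that differed between clones and parental line. The spread in that fit came from the clones alone, since the model fits the 2 parental libraries exactly. For CCND1 the interaction was -0.79 (log2, SE 0.27, adjusted p = 0.0269), with E2 ratios of 1.03 for the parental cells, 0.47 for clone 1 and 0.023 for clone 2. For CCNE2 it was 0.84 (SE 0.23, adjusted p = 0.00534), with ratios of -0.78, -0.10 and 0.21. In that fit 15.8% of all genes passed, and without the block neither gene did (adjusted p = 0.617 for both).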

How the results depend on the processing

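The lists of calls were larger with DESeq2 than by edgeR. DESeq2 called 1115 genes for E2 over the 3 lines (2 of the 10 genes, 3 of the pathway lists), 454 for the knockout (3 and 1), 310 for E2 in the clones (2 and 1), 29 for the interaction (0 and 1) and 369 between the clones. With the replicate block the counts were 384 for E2 (2 of the 10), 2227 for E2 in the clones (2 of the 10, 5 of the lists) and 2470 for the interaction (2 and 13), and 46 for the knockout. Of the 10 genes, the block changed the calls of CDKN1C for E2, CCND2 and CDKN1C in the clones, and CCND1 and CCNE2 in the interaction, and no other call. Between the clones 236 genes passed with no filter and 63 with at least 10 counts in every library. That filter turned the sign of CDK6 for E2 (0.0015) and of CCNE1 for the knockout (0.0086). Scaling to total counts moved the median E2 ratio of all genes in the parental line to 0.17, and put clone 1 in DMSO above the parental line for CDK4 (0.033) and CDKN1B (0.039).

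With libraries or lines left out, E2 over the 3 lines gave 40 to 3353 genes (0 to 3 of the 10, 0 to 13 of the lists) and the knockout 1 to 996 (0 to 4, 0 to 4). E2 in the clones gave 0 to 352 (0 to 2, 0 of the lists), the interaction 0 to 38 (0 to 1, 0 of the lists) and the clone contrast 174 to 2754 (1 to 2, 0 to 11). Signs turned for E2 in CDK6 (-1.23 to 0.92) and CCNE2 (-0.44 to 0.062). For the knockout they turned in CCNE1 (-0.075 to 0.049), CCNE2 (-0.34 to 0.50), CDKN1B (-0.062 to 0.20) and CDK6 (-2.77 to 0.14). In the clones they turned for CCND1 (-0.038 to 0.51), CDK6 (-2.62 to 1.59) and CCNE2 (-0.043 to 0.14), and in the interaction for CDK6 (-2.75 to 1.44) and CDKN1C (-0.22 to 0.65). Between the clones they turned for CCNE2 (-0.30 to 0.35), CDKN1B (-0.11 to 0.17), CCND1 (-0.059 to 0.67), CCND3 (-0.022 to 0.051) and CCND2 (-0.38 to 0.11). The fits for E2 and for the interaction had no term for line. Leaving out 1 clone library therefore carries the CDK6 level difference between the clones into those estimates. The cause of the turns was not tested. Where an arm keeps 1 library, that library is assumed to vary like the others. Not estimable were the knockout without the parental line, the clones alone without a clone, and the interaction without a parental library. The counts of 8 and 6 genes with one sign were within 1.5 times under each alternative. With 75 and 40 counts in clone 2, CDK6 is the member whose ratios counting limits most.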
